A study of Homo sapiens with 12 samples.

Results

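The genes described here are 34 genes that act in G2 phase and mitosis, chosen by name. They were measured in 2 human carcinoma lines, 786-O (renal cell carcinoma) and PC3 (prostate cancer). The lines were cultured alone or below mouse muscle progenitors held in the top chamber of a transwell plate. Of the 34 members, 34 were found among the 19763 genes with a single symbol on the array, 32 by symbol and 2 by gene identifier because the array file carries their older symbols (CDC2 for CDK1 and DLG7 for DLGAP5). They had 67 probe sets, the groups of short oligonucleotides that each report 1 signal for a transcript; 19 members had several probe sets, up to 5 for BUB1, and 15 had 1.

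There were 12 HG-U133 Plus 2 arrays, 3 in each of 4 groups. In the groups 786-O alone and PC3 alone, 30000 cancer cells were plated in the lower well. In the groups 786-O co-culture and PC3 co-culture, the cells were plated likewise for 6 h, after which 10000 primary myoblasts, isolated from the limbs of 5-day-old C57BL/6-Tg GFP mice, were placed in the top chamber of the transwell plate for 12 h before RNA was taken. One label gives the ratio of the cell types as 1:1, which differs from these numbers. The 786-O cells grew in RPMI1640 and the PC3 cells in F-12K medium, so line and medium cannot be told apart, and each line stands for 1 tumour. The labels do not say whether the 3 repeats of a group were separate cultures, so p-values measure the spread between these arrays, which may be technical. In such bulk samples a smaller share of cells in G2 and M phase and less RNA per cell cannot be told apart.

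G2 and M phase genes are transcribed in a wave late in the cell cycle. Cyclins A and B with CDK1 drive entry into mitosis, the mitotic kinases and kinesins build the spindle, and the anaphase promoting complex (APC/C) ends it by marking securin and the cyclins for degradation. Their promoters often hold a cell cycle genes homology region (CHR), the site through which the DREAM complex represses them in resting cells and the B-MYB, MuvB and FOXM1 proteins activate them in G2, together with CCAAT boxes bound by NF-Y. Levels of these transcripts, MKI67 (Ki-67) above all, are widely used as a measure of proliferation in tumours.

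Promoter sequences of 29 of the 34 members were found in the RefSeq promoter table (build GRCh38.p14, 250 bases before and 50 after the start of each gene). The CHR was searched as TTTGAA or TTCGAA and the CCAAT box as CCAAT, each on both strands, so that TTCAAA and ATTGG count as matches. A CHR match was present in 19 of 29 member promoters (65.52%) and in 16.62% of the 27305 promoters of the table. A CCAAT match was present in 23 (79.31%, against 35.7% of all), at least 2 of them in 15 (51.72%, against 11.32%), and both motifs in 17 (58.62%, against 6.58%). These are counts of letters and not of binding, and the share is a description of the list. The promoters of 3 members whose response differed between the lines, and of PLK1, whose highest-mean probe set differed most between the lines in co-culture, are shown 5′ to 3′ in gene orientation with the motif matches in capitals.
MKI67 (chr10:128126374-128126673, minus strand): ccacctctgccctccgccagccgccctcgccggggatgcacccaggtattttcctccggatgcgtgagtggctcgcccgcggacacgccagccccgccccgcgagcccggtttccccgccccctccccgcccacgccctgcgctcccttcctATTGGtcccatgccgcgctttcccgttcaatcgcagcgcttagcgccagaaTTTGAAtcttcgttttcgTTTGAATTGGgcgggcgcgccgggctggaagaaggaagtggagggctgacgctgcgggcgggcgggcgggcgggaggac
ASPM (chr1:197146620-197146919, minus strand): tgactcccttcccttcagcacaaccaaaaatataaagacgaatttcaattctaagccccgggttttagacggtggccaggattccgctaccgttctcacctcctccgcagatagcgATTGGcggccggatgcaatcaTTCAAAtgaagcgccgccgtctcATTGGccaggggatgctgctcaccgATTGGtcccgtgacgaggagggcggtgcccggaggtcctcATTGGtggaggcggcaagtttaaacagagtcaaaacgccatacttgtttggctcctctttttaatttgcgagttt
CENPF (chr1:214602945-214603244, plus strand): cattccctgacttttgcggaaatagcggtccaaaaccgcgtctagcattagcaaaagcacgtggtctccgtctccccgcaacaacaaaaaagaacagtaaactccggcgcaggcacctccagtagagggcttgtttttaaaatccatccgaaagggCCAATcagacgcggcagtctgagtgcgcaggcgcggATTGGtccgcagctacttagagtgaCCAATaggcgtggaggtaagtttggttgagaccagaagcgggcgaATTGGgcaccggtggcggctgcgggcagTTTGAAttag
PLK1 (chr16:23678639-23678938, plus strand): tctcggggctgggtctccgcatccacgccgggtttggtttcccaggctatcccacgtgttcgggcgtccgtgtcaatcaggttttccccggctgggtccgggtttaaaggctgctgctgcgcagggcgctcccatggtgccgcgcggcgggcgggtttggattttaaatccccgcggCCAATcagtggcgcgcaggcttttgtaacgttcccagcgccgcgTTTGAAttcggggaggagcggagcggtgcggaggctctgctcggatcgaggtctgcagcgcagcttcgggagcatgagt
In PLK1 the CHR match began at position -29, counted from the start as 0, and its 1 CCAAT match at -73. The CCNB2 promoter also had its CHR match at -29. MKI67 held 2 matches of each kind, and in 1 place a CHR and a CCAAT match shared bases, the single such overlap among the member promoters. The ASPM promoter held 1 CHR and 4 CCAAT matches, as did that of CENPF. CDC25B, the other gene whose response differed between the lines, had neither motif in this window, nor did CDC25C, CENPE and KIF2C. Each gene was read at 1 start, the first listed for it, so a motif near another start would be missed.

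The labelled cell types were checked on their markers. Of 6 renal markers, 6 had signal in 786-O cells, with PAX8 at 9.54 to 10.84 on the log2 scale, while 3 of the 6 (CDH6, PAX2 and VCAM1) stayed under a floor of 16 signal units (4 on the log2 scale) on every PC3 array. Of the prostate markers, KLK3 was under the floor on every PC3 array, and HOXB13 stood at 8.10 to 8.68 there and under the floor on every 786-O array. All 7 human myoblast markers on the array (PAX7, MYF5, MYOD1, MYOG, DES, CDH15 and CHRNA1) were under the floor on 12 of 12 arrays, and their summed signal was 31.8 to 36.8 units over all groups. These probes are for human transcripts, so mouse RNA may escape them. The median signal of an array ranged from 5.46 to 5.73 units.

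One array stood apart and touches every result below. On repeat 2 of the 786-O co-culture group the ratio of the 3′ to the 5′ control probe set of ACTB was 7.22, against 3.08 to 4.24 on the other 11 arrays, and that of GAPDH was 1.84 against 1.07 to 1.29. RNA integrity was labelled 10 in each of the 12 samples. On this array the highest-mean probe set of each member lay above the mean of the other 2 repeats for 27 of 34 genes, by a median of 0.21 (log2 difference), whereas the other member probe sets lay above it for 9 of 26, with a median of -0.23. The lowest were BUB1 216277_at at -2.07, BIRC5 210334_x_at at -1.84 and CDC25C 217010_s_at at -1.38. The standard deviation of these deviations over the 60 tested member probe sets was 0.57 on this array and 0.0952 to 0.212 on the 9 arrays of the other groups. Because 1 estimate of the spread serves all groups, this array widens the error of the PC3 comparisons as well. Results for the responses are given with and without it.

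**Figure D1:**
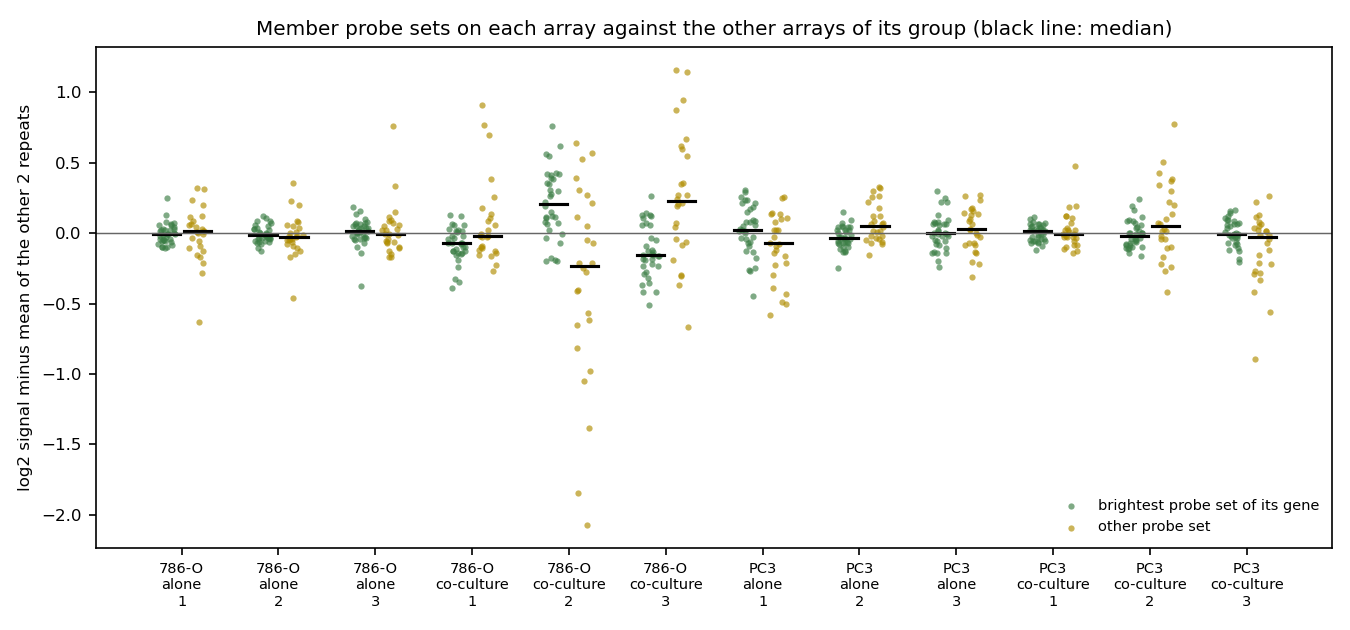
Deviation of the 60 tested member probe sets on each of the 12 arrays from the mean of the other 2 repeats of the group (log2 signal), with the highest-mean probe set of each gene in green, the other probe sets in ochre and medians as black lines. On repeat 2 of 786-O co-culture the green median is 0.21 and the ochre median -0.23.

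Signals were compared with limma on the log2 scale, all probe sets together, and a probe set is called where the Benjamini-Hochberg adjusted p over all 19963 tested probe sets was under 0.05. Of the member probe sets, 60 of 67 were bright enough to be tested, at least 1 for each of the 34 genes. The other 7 were left out: 1 each of AURKB, BUB1 and TOP2A and 3 of CCNB2 lay under the floor in all 4 groups, and KIF23 244427_at in 2 of them. None of the 60 had a group mean under the floor. Errors of differences are standard errors from that fit, with n = 3 arrays in each group.

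In PC3 cells with myoblasts, probe sets of 5 mitotic genes fell, and in 786-O cells those of 3 rose. In PC3 cells 7 of 60 member probe sets fell (11.7%) and 0 rose, where 2.05% of all probe sets fell and 2.07% rose. These 7 belong to MKI67, ASPM, CCNA2, CCNB1 and NUSAP1. In 786-O cells 3 of 60 rose (5%) and 0 fell, where 5.66% of all probe sets rose and 3.77% fell, so the share that rose was near the background. They belong to CDC25B, CENPF and TOP2A. At an unadjusted p under 0.05 in the same limma fit, 0 member probe sets were higher and 21 lower in PC3 cells, where 7.59% and 8.35% of all probe sets were. In 786-O cells 11 of the 60 were higher and 4 lower, where 14.6% and 14.1% of all were. The test of the difference between the responses called 4 of 60 higher in 786-O (6.67%, against 2.17% of all probe sets) and 0 lower (against 1.69% of all; unadjusted p under 0.05: 21 higher and 0 lower, against 11.2% and 9.82% of all): MKI67, ASPM, CENPF and CDC25B.

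Over the 34 genes, each by its highest-mean probe set, the median log2 difference was -0.07 in PC3 cells and 0.06 in 786-O cells, against 0.0046 and 0.0153 over all 11407 genes. The median of 786-O cells became -0.0074 without repeat 2 of the co-culture group. In PC3 cells 29 of 34 genes had a difference below 0, as did 48% of all genes. In 786-O cells 20 of 34 had a difference above 0, as did 53% of all genes. For 17 genes it was above 0 in 786-O and below 0 in PC3, for 12 below 0 in both, for 3 above 0 in both and for 2 the reverse of the first kind. Arrays of the 2 PC3 groups did not overlap for 31 of 60 member probe sets (51.7%), 31 of them lower in co-culture, where 26.6% of all probe sets did not overlap 14.6% lower and 11.9% higher. In 786-O cells 13 of 60 (21.7%) did not overlap, 9 higher and 4 lower, against 33.9% of all (16.4% higher and 17.5% lower).

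**Figure D2:**
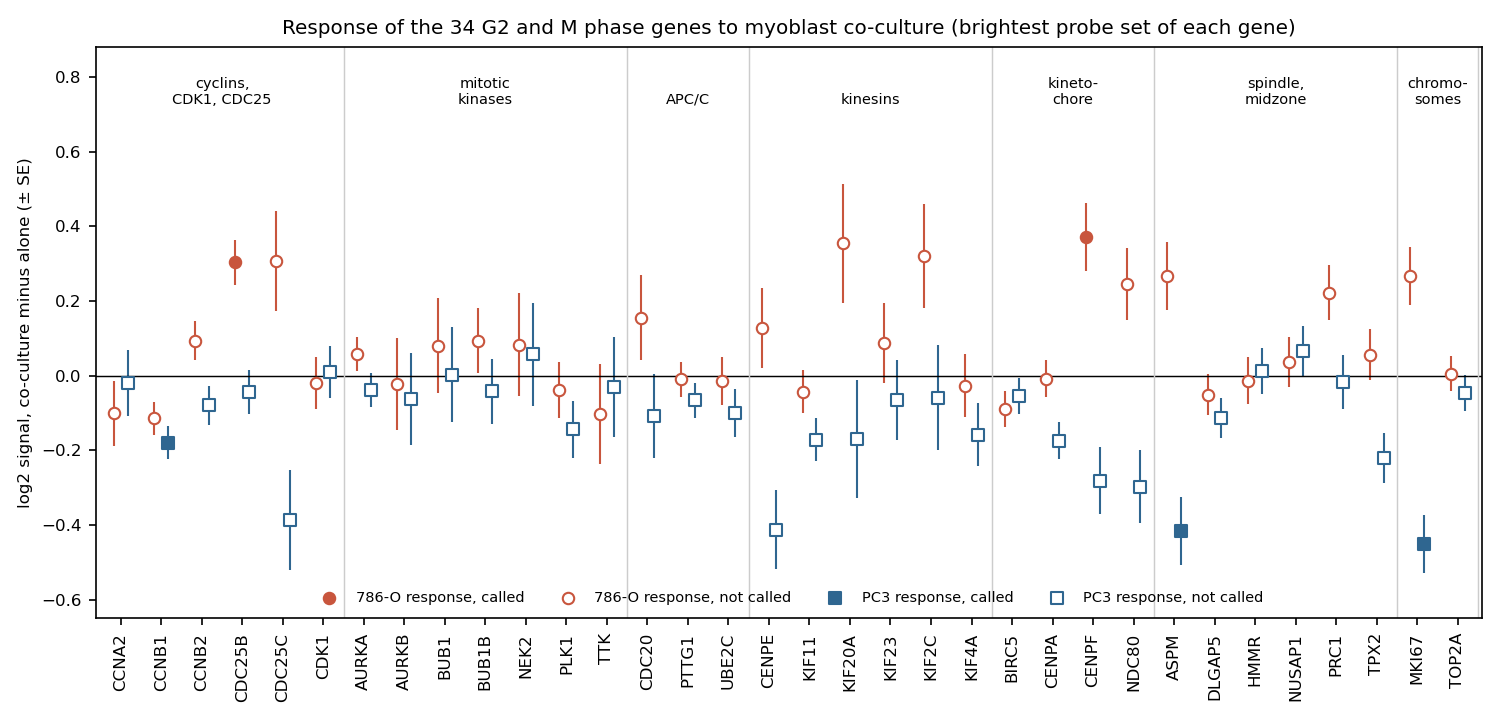
Log2 difference, co-culture minus alone, of the highest-mean probe set of each of the 34 genes in 786-O (red circles) and PC3 cells (blue squares), ordered by role, with standard errors (n = 3 arrays a group) and filled symbols for called genes. The lowest PC3 value is -0.45 for MKI67 and the highest 786-O value 0.37 for CENPF.

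MKI67 encodes Ki-67, the protein that coats mitotic chromosomes and marks cycling cells. Its probe set 212022_s_at read 11.76, 11.93 and 12.09 in PC3 cells alone and 11.47, 11.54 and 11.42 in co-culture. It read 12.44, 12.41 and 12.47 in 786-O cells alone and 12.61, 12.76 and 12.75 in co-culture. The groups did not overlap in either line, with co-culture below in PC3 and above in 786-O. In PC3 cells the log2 difference was -0.45 ± 0.08 (limma, adjusted p = 0.0063), a fold of 0.731, and in 786-O cells it was 0.27 ± 0.08 (adjusted p = 0.0515), which missed the threshold. Their difference was 0.72 ± 0.11 (adjusted p = 0.00518). The PC3 fall and the difference kept their calls with each of the 12 arrays left out in turn, with a highest adjusted p of 0.0347 and 0.0213.

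The other 3 MKI67 probe sets pointed the same way in PC3 cells. Probe set 212023_s_at read 10.24, 10.11 and 10.15 alone and 9.68, 9.46 and 9.68 in co-culture, and fell by 0.56 on the log2 scale (SE 0.13, limma adjusted p = 0.0361). The values of 212020_s_at and 212021_s_at were -0.36 ± 0.10 (adjusted p = 0.0719) and -0.51 ± 0.16 (adjusted p = 0.127), not called. In 786-O cells the 4 probe sets ranged from 0.07 to 0.33, and 0 of 4 passed. Without repeat 2 of 786-O co-culture this range was -0.11 to 0.24, while all 4 probe sets were called lower in PC3 cells, with a highest adjusted p of 0.0174.

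ASPM is a protein of the spindle poles. Its probe set 219918_s_at read 12.10, 12.07 and 12.18 in PC3 cells alone and 11.75, 11.65 and 11.69 in co-culture, against 12.70, 12.62 and 12.52 in 786-O alone and 12.83, 13.12 and 12.70 in co-culture. The PC3 groups did not overlap, whereas the 786-O groups met at 12.70 and their highest array was repeat 2 of co-culture. It fell by 0.42 in PC3 cells (log2, SE 0.09, limma adjusted p = 0.0249) and was 0.27 ± 0.09 in 786-O cells (adjusted p = 0.0836), or 0.15 ± 0.06 without that repeat. Between the responses it was 0.68 ± 0.13 (adjusted p = 0.0159). A second probe set, 232238_at, read 7.89, 8.14 and 7.88 in PC3 cells alone and 7.43, 7.02 and 7.45 in co-culture. It fell by 0.67 (SE 0.15, adjusted p = 0.0239), while its 786-O value was -0.03 ± 0.15. The third, 239002_at, was at -0.44 ± 0.19 in PC3 cells (adjusted p = 0.298). Over the 3 probe sets the difference between the responses was 0.65 to 0.68, and 0.57 to 0.90 without repeat 2 of 786-O co-culture.

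CENPF, a large kinetochore protein of G2 and M phase, rose in 786-O cells. Probe set 207828_s_at read 12.15, 12.26 and 12.26 in 786-O cells alone and 12.49, 12.86 and 12.44 in co-culture. In PC3 cells it read 12.26, 12.17 and 12.20 alone and 11.96, 11.92 and 11.91 in co-culture. The groups did not overlap in either line, with co-culture above in 786-O and below in PC3. The 786-O difference was 0.37 ± 0.09 (limma, adjusted p = 0.03) and the PC3 value was -0.28 ± 0.09 (adjusted p = 0.131). Their difference was 0.65 ± 0.13 (adjusted p = 0.0189). Without repeat 2 of 786-O co-culture the 786-O difference was 0.24 ± 0.05 (adjusted p = 0.0134), and the PC3 fall was then called (adjusted p = 0.00245). The second probe set, 209172_s_at, gave 0.46 ± 0.16 and -0.29 ± 0.16 in the 2 lines, neither called.

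CDC25B, a phosphatase that removes the inhibitory phosphates of CDK1, had 1 probe set. It read 11.67, 11.66 and 11.57 in 786-O cells alone and 11.95, 12.01 and 11.85 in co-culture, 2 groups that did not overlap. In PC3 cells it read 11.90, 11.87 and 11.91 alone and 11.81, 11.80 and 11.93 in co-culture, which did overlap. The 786-O rise was 0.30 ± 0.06 (limma, adjusted p = 0.0125), the PC3 value -0.04 ± 0.06 (adjusted p = 0.812) and the difference between them 0.35 ± 0.08 (adjusted p = 0.0446).

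**Figure D3:**
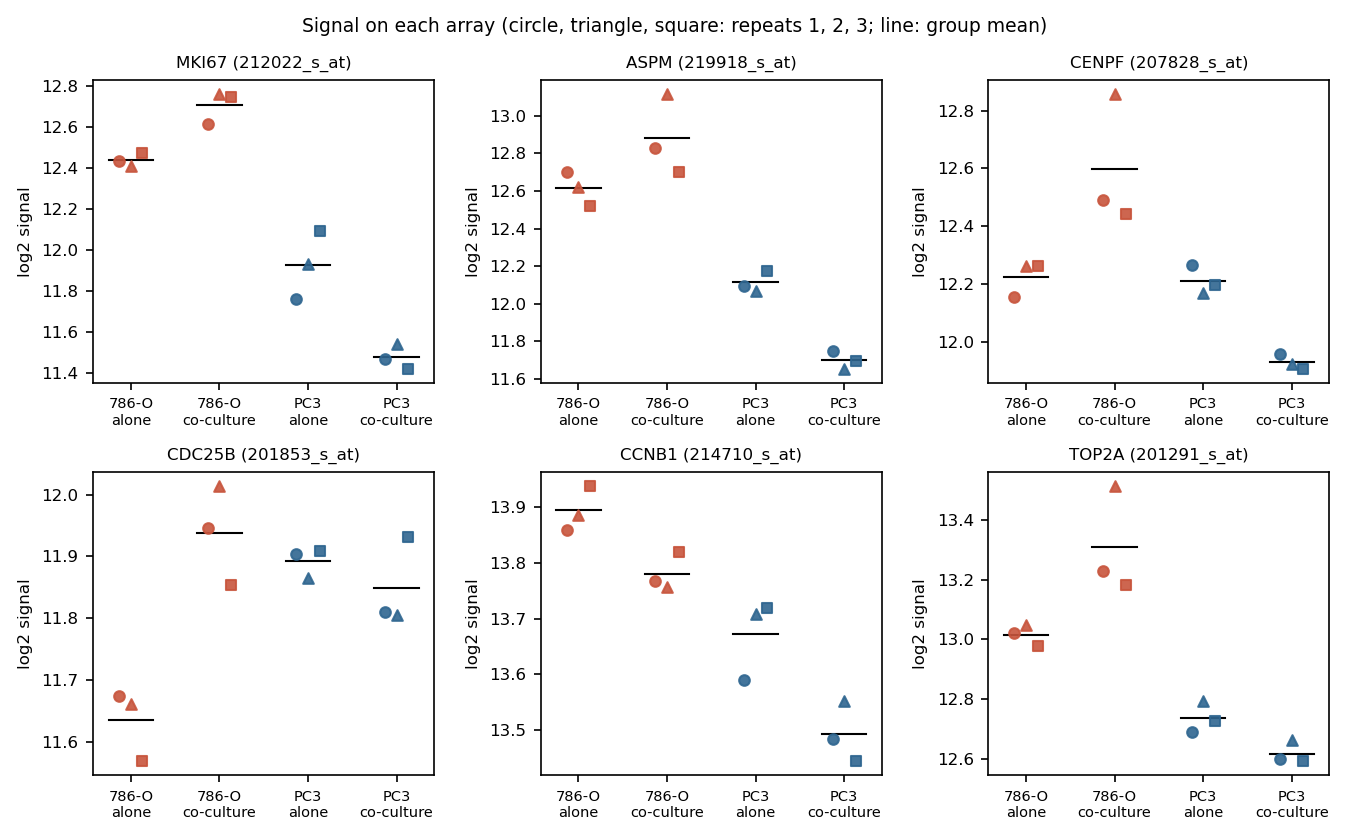
Log2 signal on each of the 12 arrays for 6 member probe sets, by group, with repeats 1, 2 and 3 as circle, triangle and square and the group mean as a line; each axis has its own range and does not start at 0. In MKI67 the PC3 co-culture arrays lie between 11.42 and 11.54, under every other array, and in CENPF and TOP2A repeat 2 of 786-O co-culture is the highest array.

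TOP2A, the topoisomerase that untangles sister chromatids, gave a rise in 786-O cells by 1 of its 2 tested probe sets. Probe set 201291_s_at read 13.02, 13.05 and 12.98 alone and 13.23, 13.51 and 13.18 in co-culture, without overlap, a difference of 0.29 ± 0.07 (limma, adjusted p = 0.0323). The highest array was again repeat 2, without which the difference was 0.19 ± 0.04 (adjusted p = 0.0211). Probe set 201292_at read 13.87, 13.88 and 13.91 alone and 13.91, 13.94 and 13.83 in co-culture, a difference of 0.0055 ± 0.05 (adjusted p = 0.957). In PC3 cells the values were -0.12 ± 0.07 and -0.05 ± 0.05, neither called.

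Among the cyclins, CCNA2 and CCNB1 fell in PC3 cells, each by 1 of 2 probe sets. CCNA2, cyclin A2, read 11.47, 11.59 and 11.63 in PC3 cells alone and 11.14, 11.17 and 11.18 in co-culture on probe set 203418_at, a fall of 0.40 on the log2 scale (SE 0.08, limma adjusted p = 0.0132). Its other probe set, 213226_at, was at -0.02 ± 0.09 (adjusted p = 0.967), with PC3 groups that overlapped. CCNB1, cyclin B1, read 13.59, 13.71 and 13.72 alone and 13.48, 13.55 and 13.44 in co-culture on 214710_s_at. This was a fall of 0.18 (SE 0.04, adjusted p = 0.0455), the smallest of the called changes, and its second probe set, 228729_at, had the opposite sign, 0.14 ± 0.12 (adjusted p = 0.649). In 786-O cells both cyclins had values below 0 on both probe sets, -0.23 and -0.10 for CCNA2 and -0.11 and -0.14 for CCNB1, none of them called. For neither cyclin was the difference between the responses called.

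NUSAP1, which bundles spindle microtubules, fell in PC3 cells by 1 of 2 probe sets. Probe set 219978_s_at read 11.30, 11.42 and 11.51 alone and 10.85, 11.06 and 10.84 in co-culture, a fall of 0.50 (log2, SE 0.12, limma adjusted p = 0.0333). Probe set 218039_at read 13.64, 13.41 and 13.39 alone and 13.56, 13.47 and 13.60 in co-culture, a difference of 0.07 ± 0.07 (adjusted p = 0.717). The 786-O values were 0.06 ± 0.12 and 0.04 ± 0.07.

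By highest-mean probe set, CENPE and CDC25C had the next largest PC3 values and were not called. CENPE, the kinesin that carries chromosomes along spindle microtubules, read 11.15, 11.20 and 11.24 in PC3 cells alone and 10.86, 10.72 and 10.77 in co-culture, a difference of -0.41 ± 0.11 (limma, adjusted p = 0.0556). In 786-O cells it read 11.24, 11.21 and 11.30 alone and 11.33, 11.66 and 11.14 in co-culture, a difference of 0.13 ± 0.11, with its highest and lowest arrays both in co-culture. CDC25C, the other CDK1 phosphatase of the list, read 10.43, 10.64 and 10.76 in PC3 cells alone and 10.17, 10.30 and 10.21 in co-culture on 205167_s_at, a difference of -0.39 ± 0.13 (adjusted p = 0.167). Its 786-O arrays read 9.91, 9.83 and 9.50 alone and 9.82, 10.20 and 10.14 in co-culture, which overlapped, with a difference of 0.31 ± 0.13 (adjusted p = 0.16). Without repeat 2 of 786-O co-culture, CENPE was called lower in PC3 cells (adjusted p = 0.0018), and so was CDC25C by its 2 other probe sets. Of these 2, 216914_at is aligned on the opposite strand, and what it reports is uncertain.

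Which members passed in PC3 cells depended on single arrays. When each of the 12 arrays was left out in turn, the number of member probe sets called lower ranged from 1 to 17 and the number called higher was 0 each time. It was 17, from 12 genes, without repeat 2 of 786-O co-culture, when 5.18% of all probe sets were called lower, and 13, from 11 genes, in a fit of only the 6 arrays of the PC3 line, when 2.95% were. The 12 genes were ASPM, BIRC5, CCNA2, CCNB1, CDC25C, CENPA, CENPE, CENPF, MKI67, NDC80, NUSAP1 and TPX2. It was 1, MKI67 212022_s_at, without repeat 1 of PC3 co-culture and without repeat 2 or 3 of PC3 alone, when 0.912% to 0.952% of all were lower. The call of ASPM 219918_s_at was lost without any 1 of the 6 PC3 arrays (adjusted p 0.0518 to 0.108), and that of CCNA2 without repeat 1 of PC3 co-culture (0.0616) or repeat 2 (0.0627) or 3 (0.0641) of PC3 alone. The calls of CCNB1 and NUSAP1 were lost under 8 of the 12 omissions: repeat 1 of 786-O co-culture, each repeat of 786-O alone, repeats 1 and 3 of PC3 co-culture and repeats 2 and 3 of PC3 alone, with highest adjusted p-values of 0.183 and 0.139. That of ASPM 232238_at was lost without repeat 1 or 2 of PC3 co-culture or repeat 2 or 3 of PC3 alone (highest 0.116), and that of MKI67 212023_s_at without any repeat of 786-O alone or any PC3 array (highest 0.123).

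The 786-O calls and the differences between the responses were likewise tied to single arrays. The number called in 786-O cells ranged from 0, without repeat 3 of 786-O alone, to 10 (7 higher and 3 lower), without repeat 3 of 786-O co-culture. Of all probe sets 2.85% and 20.5% were called in these fits. In a limma fit of only the 6 arrays of the 786-O line, 0 member probe sets were called, where 0.431% of all were, and without repeat 2 of co-culture 4 were (CDC25B, CENPF, MKI67 and TOP2A), where 7.73% of all were. CDC25B lost its 786-O call without repeat 3 of 786-O alone (limma adjusted p = 0.059). CENPF lost it without repeat 1 (0.0988), 2 (0.0811) or 3 (0.0828) of 786-O alone, and TOP2A without any of these 3 (0.0845, 0.0852 and 0.117) or repeat 1 of PC3 co-culture (0.0514). Of the differences between the responses, ASPM and MKI67 kept their calls in 12 of 12 omissions. CENPF lost it without repeat 1 of 786-O alone (0.0542), repeat 1 (0.0508) or 3 (0.0513) of PC3 co-culture or repeat 3 of PC3 alone (0.0505). CDC25B kept it in 2 of 12, without repeats 2 and 3 of 786-O co-culture. The number called there ranged from 2, without repeat 1 of 786-O alone, repeats 1 or 3 of PC3 co-culture or repeat 3 of PC3 alone, to 15 from 10 genes without repeat 2 of 786-O co-culture; it was 11 (10 higher and 1 lower) without repeat 3 of that group. Of all probe sets 1.51% to 2% were called in the fits with 2 members called, and 8.45% and 5.98% in the other fits.

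The remaining members are given by role, each by its highest-mean probe set. Of the 6 cyclins, CDK1 and CDC25 phosphatases, CCNB2 (cyclin B2) and CDK1, the kinase they activate, had responses between -0.08 and 0.09 in both lines. CDK1 read 13.82, 13.77 and 13.81 in 786-O cells alone and 13.82, 13.86 and 13.66 in co-culture, groups that overlapped, as those of PC3 cells did. Its 3 probe sets aligned to the same strand had responses of -0.07 to 0.01 in the 2 lines.

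Of all genes 7.3% were called higher and 3.48% lower in 786-O, 2.57% and 2.28% in PC3, and 2.66% and 1.88% in the difference. An unadjusted p under 0.05 in limma was reached by 30.4% of all genes in 786-O, 17.5% in PC3 and 23.3% in the difference. None of the 7 mitotic kinases was called in a response or in the difference, and 0 of 7 reached such an unadjusted p in any of these 3 tests. They are AURKA and AURKB (Aurora kinases of the spindle poles and of the passenger complex), PLK1 (mitotic entry and spindle), NEK2 (centrosome separation), and TTK, BUB1 and BUB1B (spindle checkpoint). Their log2 differences ran from -0.10 to 0.09 in 786-O and from -0.14 to 0.06 in PC3 cells. The APC/C group, CDC20 (its mitotic activator), UBE2C (its ubiquitin-conjugating enzyme) and PTTG1 (securin), ran from -0.02 to 0.16 and from -0.11 to -0.07, and 0 of 3 were called.

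The 6 kinesins ran from -0.04 to 0.35 in 786-O cells and from -0.41 to -0.06 in PC3 cells, all 6 below 0 in PC3, and 0 were called in either line. Besides CENPE these are KIF11 (spindle pole separation), KIF20A and KIF23 (midzone and cytokinesis), KIF2C (microtubule depolymerisation at the centromere) and KIF4A (chromosome arms and midzone). KIF20A read 11.86, 11.98 and 11.93 in 786-O cells alone and 12.01, 12.78 and 12.03 in co-culture, so that its value of 0.35 ± 0.16 rested on repeat 2. Of the 4 centromere, kinetochore and passenger proteins 1 was called, CENPF in 786-O cells. CENPA, the centromeric histone, NDC80, the microtubule-binding kinetochore protein, and BIRC5, the passenger protein survivin, had PC3 values of -0.17, -0.30 and -0.05. Of the 6 spindle and midzone proteins ASPM was called. DLGAP5, HMMR, NUSAP1, PRC1 and TPX2, which bind or organise spindle microtubules, ran from -0.05 to 0.22 in 786-O and from -0.22 to 0.07 in PC3 cells.

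Probe sets of the same gene were compared for the 16 members with at least 2 tested probe sets that the file aligns to the strand of the gene's highest-mean one. In the 2 comparisons between the lines, no gene had probe sets called in opposite directions. In each response and in their difference all member calls went 1 way, so opposite calls could not occur there. In the PC3 response 9 of 16 genes had 1 sign on all their probe sets and 7 had both (AURKA, BUB1, CCNB1, CDK1, HMMR, NEK2 and NUSAP1), with a median spread between probe sets of 0.20 (log2) and a widest of 0.56 for NUSAP1. In the 786-O response 10 of 16 had 1 sign and 6 had both (ASPM, AURKA, BUB1, CDC25C, CENPA and NEK2), with a median spread of 0.11 and a widest of 0.94 for BUB1. BUB1 209642_at was at 0.08 ± 0.13 in 786-O cells while 216277_at was at -0.86 ± 0.46 and 215509_s_at at -0.33 ± 0.28. The 2 lower probe sets are among those that dropped on repeat 2 of 786-O co-culture, where 216277_at read 4.33 against 6.32 and 6.49 on its fellows. For CDC25C, 205167_s_at was at 0.31 ± 0.13 and 217010_s_at at -0.37 ± 0.31, and the second read 5.31 on that array against 6.74 and 6.64. Without that array the values of these CDC25C probe sets were 0.23 and 0.09. In PC3 cells CCNA2 and NUSAP1 had 1 probe set that fell and 1 near 0. Repeat 1 of PC3 alone showed a milder form of the same pattern. Its ACTB ratio was 4.24, against 3.21 and 3.08 on its fellows. Its median deviation was 0.0242 for highest-mean probe sets and -0.0722 for the others. Repeat 3 of PC3 co-culture had a like ACTB ratio, 4.22, but medians of -0.0074 and -0.0275, without such a split. For CCNA2 and NUSAP1 the probe set near 0 read highest on repeat 1 of PC3 alone within that group, and the one that fell read lowest. Both falls kept their calls without that repeat. Its part in the split between probe sets, and that of probe position, was not tested.

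**Figure D4:**
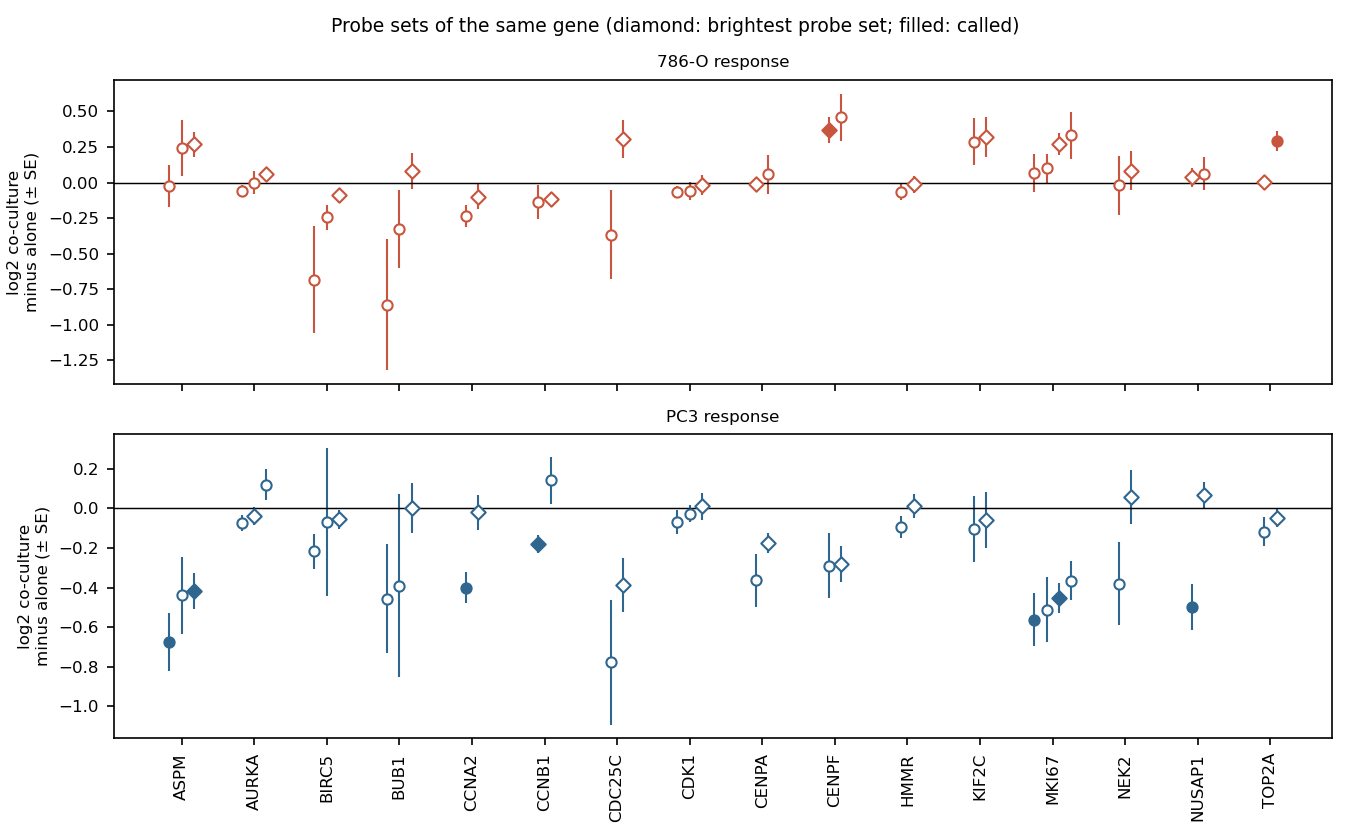
Log2 difference, co-culture minus alone, of each tested probe set of the 16 members with several, in 786-O (upper panel) and PC3 cells (lower panel), with standard errors; diamonds mark the highest-mean probe set and filled symbols called ones. The MKI67 probe sets lie together between -0.56 and -0.36 in PC3 cells, while those of BUB1 spread from -0.86 to 0.08 in 786-O cells.

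Tested probe sets aligned on the opposite strand were 1 each of BUB1, CDC25C and CDK1, and what they report is uncertain. CDC25C 216914_at was at -0.63 ± 0.26 in PC3 cells, CDK1 231534_at at -0.37 ± 0.15 in 786-O cells and BUB1 216275_at at -0.43 ± 0.31 in 786-O cells, none of them called. In the authors' deposited table, 26 of the 67 member probe sets had an unadjusted p under 0.05 between PC3 co-culture and PC3 alone, 26 of them with PC3 alone higher, where 8.58% of the 54675 probe sets of that table had such a p, 4.84% with PC3 alone higher. In the same comparison of 786-O cells the authors' deposited table gave 4 of 67, 2 higher in co-culture and 2 higher in 786-O alone. Of the latter 2, CCNB2 1560161_at lay under the floor in all 4 groups. Of all probe sets 36.1% had such a p, 4.05% with co-culture higher and 32.1% with 786-O alone higher.

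Between the lines members were called in both directions. In cells cultured alone 36 of 60 member probe sets were called, 22 higher (36.7%) and 14 lower (23.3%) in 786-O than in PC3, where 36.6% of all probe sets were higher and 36.3% lower. In co-culture 38 of 60 were called, 29 higher (48.3%) and 9 lower (15%), where 37% were higher and 37.2% lower. All co-culture counts here include repeat 2 of 786-O co-culture. Its median deviation was 0.21 for highest-mean probe sets and -0.23 for the other member probe sets. By gene, 12 of 34 were higher and 7 lower alone (37.7% and 38.4% of all genes), and 17 higher and 5 lower in co-culture (38.9% and 37.9%). The difference between the 2 responses described above is, by construction, the change in the difference between the lines, so these are not separate evidence.

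**Figure D5:**
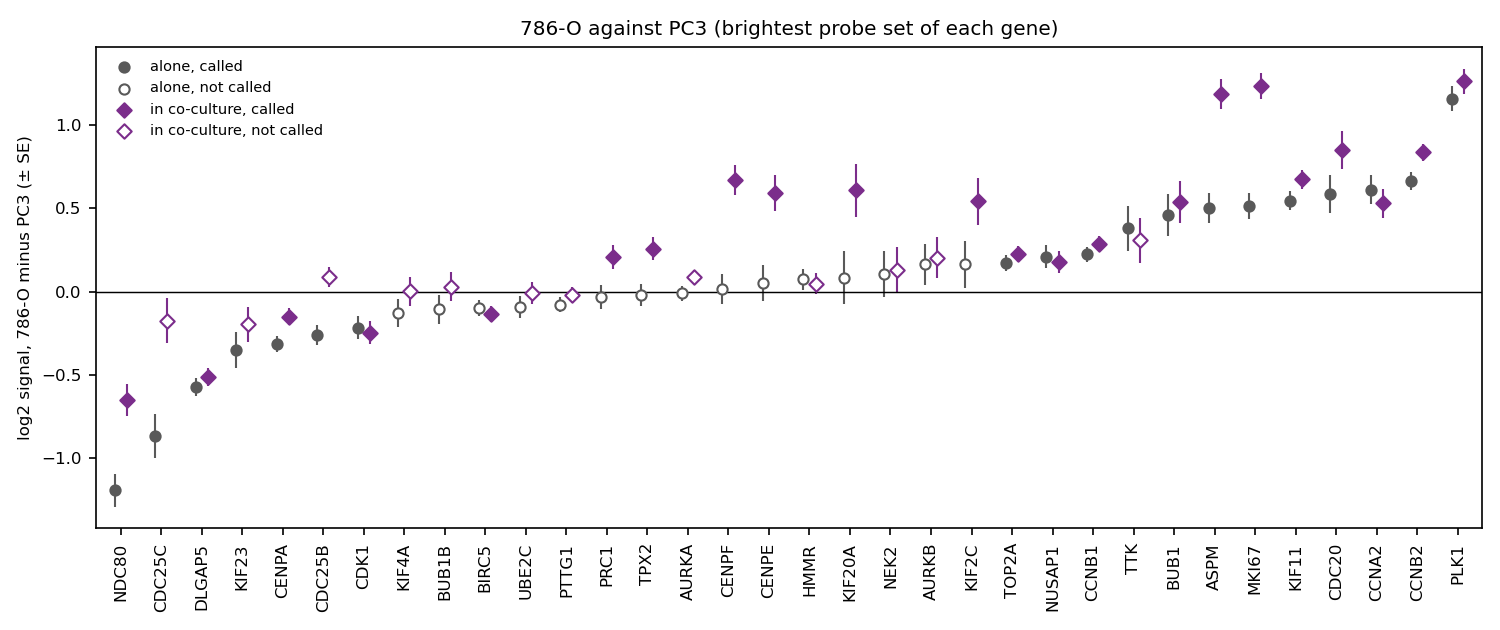
Log2 difference, 786-O minus PC3, of the highest-mean probe set of each of the 34 genes in cells alone (grey circles) and in co-culture (purple diamonds), with standard errors (n = 3 arrays a group) and filled symbols for called genes, ordered by the value alone. Values alone run from -1.19 for NDC80 to 1.16 for PLK1, and in co-culture the purple points of ASPM and MKI67 reach 1.18 and 1.23.

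By highest-mean probe set PLK1, the kinase of mitotic entry, was the member with the widest excess in 786-O cells. It read 10.79, 10.89 and 10.81 in 786-O and 9.61, 9.74 and 9.67 in PC3 cells alone, 1.16 ± 0.08 higher (limma, adjusted p = 3.88e-08), and 10.71, 10.79 and 10.88 against 9.51, 9.50 and 9.58 in co-culture, 1.26 ± 0.08 higher (adjusted p = 1.69e-08). The lines did not overlap in either condition. NDC80 was the member with the widest excess in PC3 cells: 12.23, 12.16 and 12.15 in 786-O against 13.39, 13.31 and 13.42 in PC3 cells alone, a log2 difference of -1.19 ± 0.10 (adjusted p = 2.99e-07). In co-culture NDC80 read 12.36, 12.70 and 12.21 against 13.03, 13.09 and 13.11, a difference of -0.65 ± 0.10 (adjusted p = 6.55e-05). CDC25C had a difference of -0.87 ± 0.13 alone (adjusted p = 9.07e-05) and was not called in co-culture, at -0.17 ± 0.13 (adjusted p = 0.256).

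CCNB2 was higher in 786-O by 0.66 ± 0.05 alone and 0.84 ± 0.05 in co-culture, and CCNA2 by 0.61 ± 0.09 and 0.53 ± 0.09. CDC20 was higher by 0.59 ± 0.11 and 0.85 ± 0.11. MKI67 212022_s_at was higher by 0.51 ± 0.08 alone and by 1.23 ± 0.08 in co-culture, and ASPM 219918_s_at by 0.50 ± 0.09 and 1.18 ± 0.09. All of these passed the test in both conditions and kept their calls with each of the 12 arrays left out. CDK1 was lower in 786-O cells alone on its 3 same-strand probe sets, with differences of -0.90 to -0.22. CENPF and CENPE were not called between the lines alone, at 0.02 ± 0.09 and 0.05 ± 0.11, and were higher in 786-O in co-culture, at 0.67 and 0.59, under 12 of 12 omissions. Probe sets of 1 gene had opposite signs for AURKA, HMMR, NEK2 and NUSAP1 alone and for AURKA in co-culture, within -0.35 to 0.23.

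Other genes of the same pathway, in 7 lists of regulators, APC/C subunits, condensin, kinetochore, kinesin and checkpoint genes, were read beside the members. Of 106 such genes tested, 2 rose and 4 fell in 786-O cells, where 7.3% and 3.48% of all 11407 genes did, and 1 rose and 5 fell in PC3 cells, where 2.57% and 2.28% did. The medians were -0.0092 and -0.05. The difference between the responses was called for 2 higher and 1 lower in 786-O, where 2.66% and 1.88% of all genes were.

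In PC3 cells the 5 that fell were CDCA8 (borealin, a passenger protein) by 0.35, NCAPD2 and NCAPG (condensin subunits) by 0.33 and 0.19, CDCA3 (a trigger of mitotic entry) by 0.21 and GADD45B (a stress-induced protein) by 0.39 on the log2 scale, with limma adjusted p-values of 0.0222 to 0.0471. CDKN1A, the CDK inhibitor p21, rose in PC3 cells by 0.25 ± 0.06 (adjusted p = 0.0407), and the difference between its responses was -0.36 ± 0.09 (adjusted p = 0.0419). In 786-O cells SFN (14-3-3 sigma) and CHEK2 (a checkpoint kinase) rose by 0.45 and 0.32. ARHGAP11A (a RhoA regulator in cytokinesis), SKA1 (kinetochore), LIN9 (MuvB) and DEPDC1 fell by 0.54, 0.49, 0.26 and 0.21 there, with adjusted p-values of 0.0246 to 0.0453. SPC24 (kinetochore) and CIT (citron kinase of cytokinesis) differed between the responses, by 0.40 and 0.50. Of the 15 regulators of the FOXM1, MYB-MuvB and DREAM complexes 0 rose or fell in PC3 cells and 1, LIN9, fell in 786-O cells. Of the 15 APC/C subunits and inhibitors tested and the 20 other kinesins, spindle and cytokinesis genes, 0 were called in either response. At an unadjusted p under 0.05 in limma, 0 of the 15 APC/C genes passed in PC3 cells and 4 in 786-O cells, and of the 20 other spindle genes 3 in PC3 and 6 in 786-O cells, where 17.5% of all genes passed in PC3 and 30.4% in 786-O cells.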

How the data were processed

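Signals were measured on 12 HG-U133 Plus 2 arrays. Values deposited by the authors are linear signal intensities, held in 2 tables, identical for 54675 of 54675 probe sets; MAS5, with no version, is the one tool in the submitters' processing notes, and the normalization between arrays is not given in the sources used here. The authors' deposited table also gives, between groups, a signed fold score and a p-value without adjustment. Intensities were taken to log2 with no added constant. Control probe sets (62) and those with no symbol (13164) or several (1522) were left out, and a probe set was tested if its mean log2 signal was above the median of the other 39927 (4.37), which left 19963 probe sets of 11407 genes. Gene identifiers of 38545 (96.54%) matched the RefSeq gene table. limma 3.58.1 in R 4.3.3 fitted the 4 group means with an intensity trend; 5 contrasts were tested two-sided, with Benjamini-Hochberg adjustment over all tested probe sets. Counts by gene take the probe set with the highest mean from this fit. The number of arrays limits the precision.

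Groups follow the sample labels. Some prostate markers are not reported here. The floor of 16 units lies above the 27 control probe sets for transcripts not in human cells (at most 5.02). The named genes are every member called in a response or in the difference, members with the largest difference in a response up to 10 in all, the 5 with the largest difference between the lines in each condition, members whose probe sets disagree in sign, and the genes of the pathway lists called in a response, up to 6 a list. KIF20A, KIF23, SPC24, CIT, the line differences of CDK1, CENPE and CENPF, and the opposite-strand probe sets are also described, chosen after their values were seen. The members, lists and tests were chosen with earlier results of these data known. On simulated data of 19963 probe sets, the fit called 6% of log2 changes of 0.25, 40% of 0.5, 82% of 1 and 94% of 2 in the PC3 response, with 5.93% of calls false. In the 786-O response these were 6%, 34%, 64% and 94%, with 8.33% false, and in the difference of responses 2%, 20%, 62% and 82%, with 4.6% false. The simulated noise was independent, with the same spread in all groups, and held no array like repeat 2 of 786-O co-culture. Each share rests on 50 changed probe sets in a single run. The figures therefore do not compare the lines, and rates on the real arrays may differ. Alternatives were a repeat block, arrays of 1 line, other normalizations, filters, constants and variance models, array weights, 1 probe set per gene, plain-suffix probe sets and leaving out each array; the ACTB ratio as a covariate and the fit of 1 line or condition without repeat 2 of 786-O co-culture were added after seeing the data. The plots used matplotlib 3.10.9 (Python 3.11.15).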

Additional observations from a re-analysis of the deposited data

Results flagged for a closer look

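For 4 member probe sets the response to myoblasts differed between 786-O and PC3 cells by the test of the difference itself in limma. The difference of the log2 responses, 786-O minus PC3, was 0.72 for MKI67 212022_s_at, 0.68 for ASPM 219918_s_at, 0.65 for CENPF 207828_s_at and 0.35 for CDC25B 201853_s_at, in a test over 19963 probe sets that called 2.17% of them higher in 786-O. With each array left out in turn, the lowest of these values were 0.64, 0.57, 0.52 and 0.31. The line, its medium and repeat 2 of 786-O co-culture, with its high ACTB ratio, move with these values; without that repeat all 4 were still called.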

How the results depend on the processing

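Counts of member probe sets called are given with the share of all tested probe sets called in the same fit. That of the 786-O response (3) became 0 with the arrays of the line alone (0.431% of all) and 5 with quantile normalization (8.67%). It was 1 with no filter on dim probe sets (2.75%) and 0 with plain-suffix probe sets (10%). With array weights it was 28 (11 higher, 17 lower), where 54.1% of all were called. With the ACTB ratio in the fit it was 8 (5 higher, 3 lower), where 13.6% were. It ranged from 0 (2.85% of all) to 10 (20.5%) with single arrays left out. That of the PC3 response (7) became 13 with the arrays of the line alone, with or without repeat 2 of 786-O co-culture (5.6% of all). It was 3 with no filter (2%), 4 with 1 probe set per gene (34 tested, 5.52%) and 3 with plain-suffix probe sets (30 tested, 4.91%). With array weights it was 33 (2 higher, 31 lower, 31% of all) and with the ACTB ratio 21 (9.31% of all). It ranged from 1 (2.09% to 2.24% of all) to 17 (9.15%) with single arrays left out. That of the difference of responses (4) became 32 (28 higher, 4 lower) with array weights (40.3% of all) and 1 with plain-suffix probe sets (4.59%). With the ACTB ratio it was 17 (16 higher, 1 lower, 12.6% of all). It ranged from 2 (1.51% to 2% of all) to 15 (8.45%) with single arrays left out. Between the lines the counts (36 alone, 38 in co-culture) became 19 and 22 with 1 probe set per gene (76.8% and 77.3% of all). They were 20 and 19 with plain-suffix probe sets (74.7% and 75.6% of all). Both settings have fewer tests. The array weights stopped before convergence and gave repeat 1 of 786-O co-culture a weight of 55.5 and repeat 2 one of 0.0541. The fit of the 786-O line alone called 0 member probe sets, so none of the 3 calls in 786-O could be shared with it. Of the 7 calls in PC3, 5 were shared with the fit of the PC3 line alone. No called member changed sign under any alternative run. The medians over the member genes moved by less than the standard deviation between repeats within groups (0.0828). That spread includes repeat 2 of 786-O co-culture and exceeds in size the medians of the 786-O (0.0572) and PC3 (-0.0726) responses. A fall of either to 0 would also have passed, so this does not show that they are stable. The median of 786-O took the opposite sign with the ACTB ratio (-0.0057) and without repeat 2 of co-culture (-0.0074). The cause of these changes was not tested beyond the settings named.

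Repeats with the same number were not treated as pairs. Deviations of same-numbered arrays correlated between -0.0625 and 0.0009 in 786-O and between -0.1671 and 0.2047 in PC3 cells. Those of different-numbered arrays correlated between -0.0374 and 0.0799 in 786-O and between -0.3513 and 0.266 in PC3 cells. With the repeat number as a block, the PC3 response had 4 calls in place of 7, where 3.09% of all probe sets were called. The 786-O response had 3 (5.85% of all) and the difference 4 (2.23% of all). Also called without the block were 4, 3 and 3 of these; CDC25B lost its difference and TOP2A gained one.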
